A study of Rattus norvegicus with 6 samples.

Results

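Fragments of the glutamate tRNAs were examined in AR42J, a rat line of exocrine pancreas cells that was established from a pancreatic tumour. Small RNA libraries came from 3 samples of untreated cells and 3 samples of cells given 200 µM sodium taurocholate, a bile salt, for 30 min. Both groups were otherwise grown alike. A read was taken as a Glu fragment when it aligned to mature tRNA and every such alignment was to a nuclear tRNA with the anticodon CTC or TTC. This gave 115755 reads, with 7070 distinct sequences, among the 1671615 reads and 67949 sequences aligned to tRNA. Of these, 67719 reads matched Glu-CTC (GluCTC) alone, 43086 matched Glu-TTC (GluTTC) alone, and 4950 matched both anticodons equally and were kept apart as shared Glu reads. A further 3 reads matched Glu and another tRNA equally and were left out.

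A tRNA is an adaptor of translation that carries an amino acid on a CCA tail and reads a codon with its anticodon. Under stress, RNases such as angiogenin cut mature tRNAs in the anticodon loop, which gives a 5′ and a 3′ fragment known as tiRNAs. Shorter fragments, the tRFs, come from either end. Glu tRNA is among those often reported to give abundant 5′ fragments, and some 5′ tiRNAs have been described as repressors of translation initiation.

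The 403 mature tRNA references held 8 Glu-CTC and 10 Glu-TTC tRNAs. The reads spelled 7 and 9 of them completely, as 2 and 4 distinct mature forms. Cut sites are counted along the mature tRNA from position 1 at the 5′ end, and the leading forms of Glu-TTC are printed to show this. Capitals mark the anticodon, at positions 34 to 36, and the last bases are the CCA tail.
Glu-TTC form 1: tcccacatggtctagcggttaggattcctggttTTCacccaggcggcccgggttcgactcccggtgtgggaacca
Glu-TTC form 2: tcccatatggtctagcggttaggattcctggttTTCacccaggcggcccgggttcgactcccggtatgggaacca

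Glu-CTC form 1 and Glu-TTC form 1 were identical at 60 of 75 positions, so few reads matched both equally. Form 1 and form 2 of Glu-TTC differed by C6T and G66A, where the letter of form 1 stands first. Glu-TTC form 3 differed from Glu-CTC form 1 at 2 positions and had no difference from it at positions 37 to 75. A read from the 3′ side of Glu-CTC form 1 therefore fell among the shared reads by construction. Reads that matched form 3 and no other form were 0.253% of the Glu-TTC reads, against 37.3% for form 1 alone. Form 1 alone took 58.9% of the Glu-CTC reads.

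The most abundant reads of Glu-TTC show where its fragments began and ended.
Glu-TTC positions 1 to 33: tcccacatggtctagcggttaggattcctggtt
Glu-TTC positions 1 to 29: tcccacatggtctagcggttaggattcct
Glu-TTC positions 54 to 75: tcgactcccggtgtgggaacca

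Libraries held 193750 to 348451 tRNA reads and 2791878 to 3987307 reads of miRNA precursors. Reads of 51 nt, the longest sequenced, made up 1.19% to 12.6% of the tRNA reads and do not show where their fragment ends. Untreated replicate 1 and taurocholate replicate 1 stood apart from the others in 1 respect. A mismatched G as the last base was found in 4.48%, 0.93% and 1.54% of the Glu reads of untreated replicates 1 to 3 and in 16.3%, 0.93% and 1.19% of those of taurocholate replicates 1 to 3. Results are therefore also given without both of these libraries where they differ. Among miRNAs that mark the pancreas, mir-148a was at 284614 to 422852 CPM, scaled to the miRNA reads of the library, and mir-7a-1 at 41320 to 59874. In contrast mir-217 and mir-216a, which are typical of acinar cells, reached at most 0.598 and 0.502 and were at 0 in some libraries of each group, so these defining markers of the labelled cell type were nearly absent. The pancreas markers mir-375 and mir-200c were at 2.51 to 77.5 and 4.51 to 98.1. Markers of other cells were detected at unlike levels. For immune cells mir-142 was at 1867 to 3431, but mir-223 and mir-150 reached at most 4.66 and 8.60. For stroma mir-143 was at 9709 to 13463, mir-145 at 403 to 756 and mir-214 at 56.9 to 85.8. For red blood cells mir-451 was at 32.5 to 1148 and mir-144 at 0.529 to 18.3, and for liver mir-122 was at 6.88 to 26.7. For muscle mir-133a was at 0.251 to 69.1, mir-1 at 0.752 to 16.0 and mir-206 at 17.7 to 36.2. The part of other cells in the results was not tested.

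Glu fragments were 7.65%, 7.19% and 7.74% of the tRNA reads in the untreated libraries and 5.47%, 6.61% and 7.41% with taurocholate. The groups overlapped, and the means of 7.53% ± 0.298 and 6.50% ± 0.975 (SD, n = 3 each) gave p = 0.2 and an adjusted p of 0.4 by a two-sided exact permutation test. With 3 libraries against 3 the smallest p this test can give is 0.1. Glu-CTC took 4.57%, 4.18% and 4.43% of the tRNA reads of untreated cells and 2.95%, 4.19% and 4.39% with taurocholate, and only taurocholate replicate 1 lay far below the others. Glu-TTC took 2.77%, 2.71% and 2.97% against 2.27%, 2.19% and 2.67%, so every treated library lay below every untreated one (exact permutation p = 0.1, adjusted p = 0.4). This was 1 of 4 shares compared whose groups did not overlap, and over all anticodon sets with enough reads 7.84% of the shares did not overlap. With reads of 51 nt left out, the differences were -0.51 percentage points for Glu-CTC and -0.40 for Glu-TTC, both at p = 0.1 (exact permutation test). With error-free alignments alone the Glu-TTC shares overlapped, with a difference of -0.57 percentage points (exact permutation p = 0.2).

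The 2 isoacceptors, tRNAs that carry the same amino acid, gave different fragment classes in every library. Glu-CTC gave 5′ fragments and internal fragments, while Glu-TTC also gave a large set of short 3′ fragments (see the plot of fragment classes). In the untreated libraries 43.6% ± 1.86 of the Glu-CTC reads were 5′ fragments of 31 to 50 nt, the size of tiRNAs, 21.9% ± 0.832 were 5′ fragments of 30 nt or less, 33.53% ± 3.28 were internal and 0.118% ± 0.0535 came from the 3′ end (SD, n = 3). Of the untreated Glu-TTC reads, 34.4% ± 1.53 were 5′ fragments of 31 to 50 nt, 24.7% ± 3.13 were shorter 5′ fragments, 12.4% ± 1.97 were internal and 28.0% ± 3.07 came from the 3′ end. The shared 3′ reads, which include those of Glu-CTC form 1, were too few to close this gap, at 780 reads of 3′ tRFs and 713 of 3′ tiRNAs over the 6 libraries against 13152 reads of 3′ tRFs of Glu-TTC alone.

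**Figure D1:**
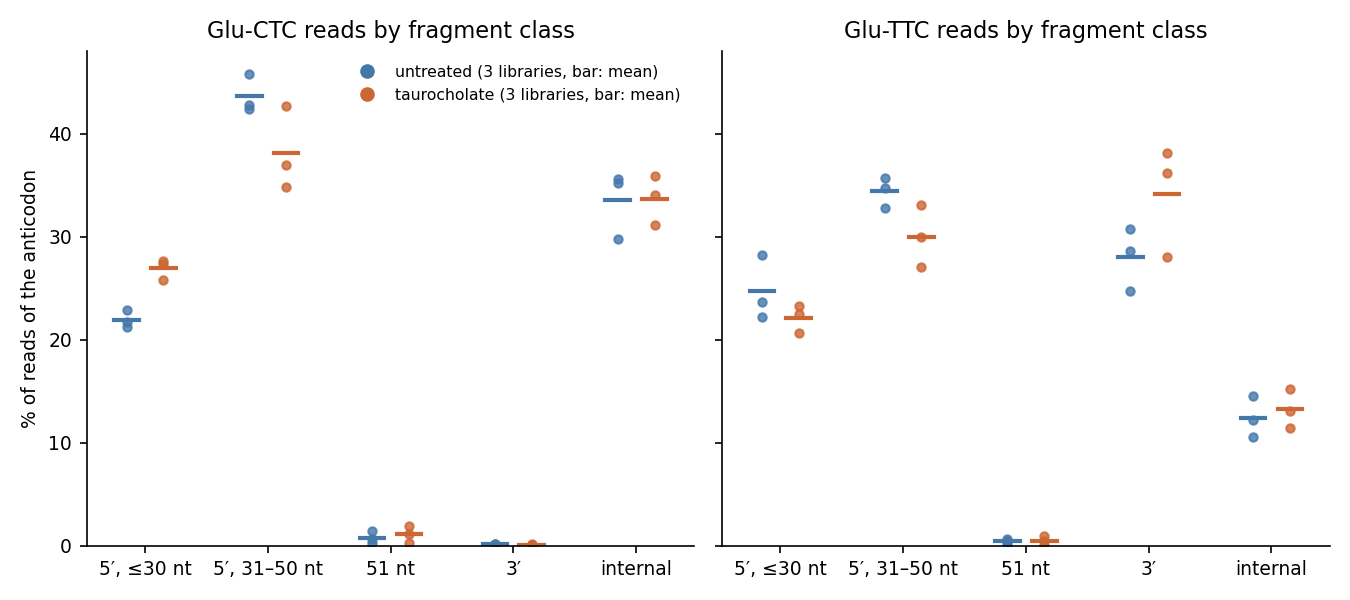
Share of the reads of each anticodon (vertical axis, percent) by fragment class for Glu-CTC (left) and Glu-TTC (right), where points are libraries and bars are means of 3. The 3′ class holds 24.7% to 38.1% of the Glu-TTC reads in each library and lies near 0 for Glu-CTC, and short 5′ fragments of Glu-CTC are the class whose groups do not overlap.

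Short 5′ fragments of Glu-CTC made up 21.7%, 22.9% and 21.2% of its reads in untreated cells and 27.4%, 27.6% and 25.8% with taurocholate. Every treated library lay above every untreated one (exact permutation p = 0.1, adjusted p = 0.6). The longer 5′ fragments took 42.8%, 45.8% and 42.4% against 34.9%, 37.0% and 42.7%, where taurocholate replicate 3 lay within the untreated range. Of 10 class shares compared, 1 did not overlap between the groups, against 6.27% of the class shares of all anticodon sets. Short 5′ fragments of Glu-TTC did not show this order, with 28.2%, 22.2% and 23.7% in untreated cells and 22.5%, 23.3% and 20.7% with taurocholate. Its 3′ fragments took 24.7%, 30.8% and 28.6% against 38.1%, 28.0% and 36.2%, with taurocholate replicate 2 inside the untreated range. With reads of 51 nt left out, the difference for short 5′ fragments of Glu-CTC was 5.11 percentage points, and with them it was 4.98. With error-free alignments alone it was 2.22 percentage points and the groups overlapped (exact permutation p = 0.2).

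In the fit of all fragment classes, none of 236 features passed an adjusted p of 0.05 by edgeR's quasi-likelihood test (0.0% called). At an unadjusted p under 0.05 there were 24 features, or 10.2%, and DESeq2's Wald test called 1. All 14 classes of Glu reads passed the filter on low counts, none was called by either tool, and none had an unadjusted edgeR p under 0.05. Their median log2 fold change was -0.04, against 0.01 over all features, and 5 of 14 were above 0. The smallest adjusted p was that of the 5′ tiRNAs of Glu-TTC, at 0.495. As CPM of the tRNA reads of each library, these tiRNAs were at 9672, 9815 and 9747 in untreated cells and 6284, 7298 and 8016 with taurocholate, which is -0.30 ± 0.15 (SE) as a log2 fold change, with no overlap of the groups. The 5′ tiRNAs of Glu-CTC were at 19628, 19753 and 18893 against 10801, 15965 and 18836 CPM, with a log2 fold change of -0.22 ± 0.20. Its lowest treated value was again that of replicate 1, and replicate 3 lay just under the untreated libraries. The 5′ tRFs of Glu-CTC had a log2 fold change of 0.24 ± 0.18, and those of Glu-TTC -0.27 ± 0.15. The 3′ tRFs of Glu-TTC stood at 0.18 ± 0.19, which became -0.02 without replicate 1 of both groups.

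tRNAs for Glu, Gly, Val, Asp, His and Lys are often reported to be cut under stress, and their 5′ tiRNAs were taken as a wider list, with 14 features tested and 0 called. Of these, 11 had a log2 fold change above 0, with a median of 0.34, and 10 of the 11 features outside Glu did, while the 5′ tiRNAs of both Glu anticodons lay below 0 and those of shared Glu reads lay above it. The 5′ tRFs of the same amino acids were above 0 in 11 of 14 features, and the 3′ tRFs in 11 of 13. Over all class features 123 of 236 were above 0. Features of 1 amino acid are not separate members, and Gly and Val gave 4 each of the 5′ tiRNAs. Where libraries were scaled by their total tRNA reads, the counts of the 3 lists were 11 of 14, 9 of 14 and 7 of 13. Under that scaling 82 of all 236 features were above 0, and their median moved to -0.12. Outside Glu, the class features most like the Glu 5′ fragments of 31 to 50 nt over the 6 libraries were the internal fragments of Arg-CCT (Pearson r of log2 values 0.98), the trailer fragments of Val-TAC (0.96) and the internal fragments of Leu-CAG (0.96), out of 177 candidates. All of these had their lowest value in taurocholate replicate 1.

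Reads of Glu-CTC began at position 1 in 63.5% of cases on average over the libraries, and those of Glu-TTC in 53.99%. The next start of Glu-CTC was position 16, in the D loop, with 11.3%, and that of Glu-TTC was position 54, in the T loop, with 26.6%. Each anticodon used few last positions (see the map of first and last positions). For Glu-CTC the most frequent pair was 1 to 33, with 9626 reads, which ends just before the anticodon. It was followed by 1 to 26 with 6248, 1 to 30 with 5043, 1 to 42 with 4812 and 1 to 39 with 3804. The internal reads of Glu-CTC shared the end at 42, with 2975 reads from 16 to 42 and 1314 from 21 to 42. A mismatched last base is counted in the last position. In the most abundant read from 1 to 42, and in that from 16 to 42, the base at 42 was a mismatched T. Of the Glu-TTC reads, 9407 ran from 1 to 33 and 5036 from 1 to 29.

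**Figure D2:**
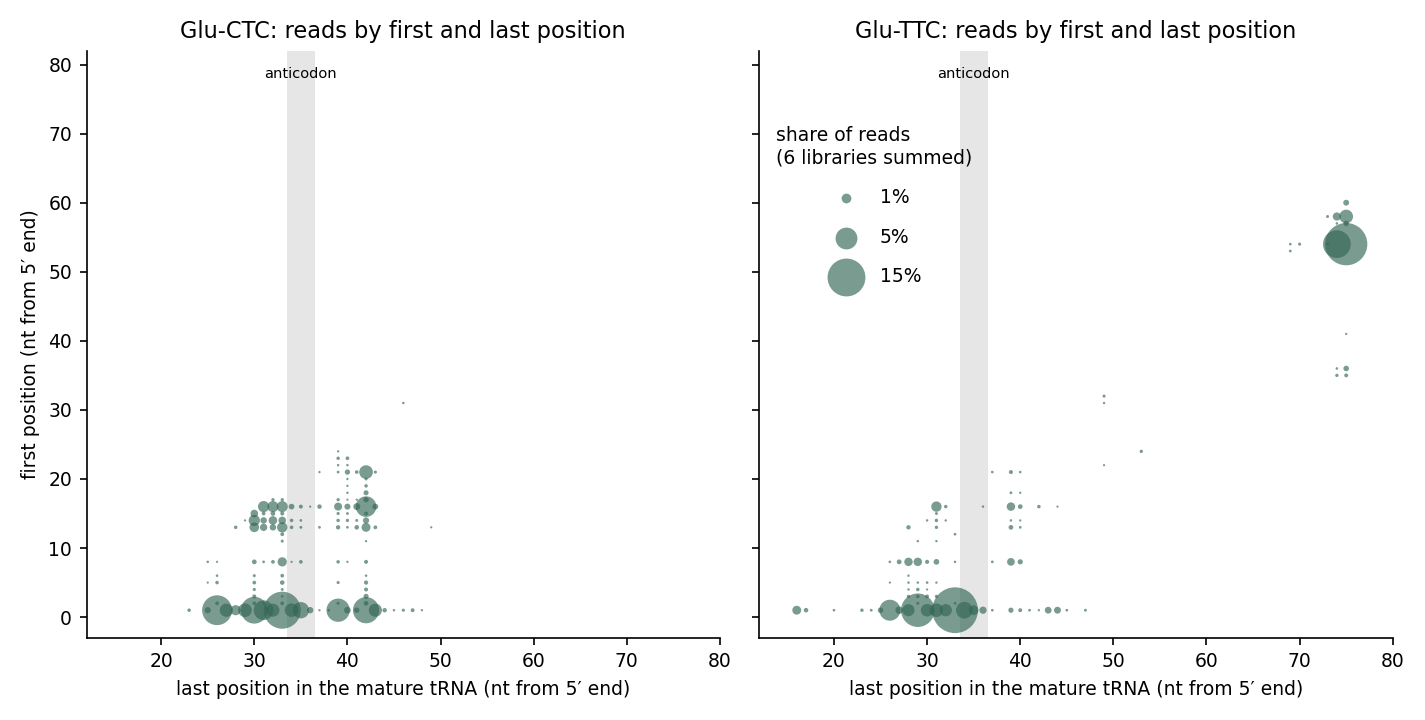
Reads of Glu-CTC (left) and Glu-TTC (right) by last position (horizontal axis, nt from the 5′ end) and first position (vertical axis), summed over 6 libraries, where the circle area is the share of the reads and the grey band is the anticodon. Pairs under 0.05% are not drawn, and a mismatched last base is counted in the last position. Glu-CTC reads from position 1 end mostly at 26, 30, 33, 39 and 42, those from 16 and 21 often at 42, and Glu-TTC has a separate group from 54 to the CCA tail.

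Glu-TTC had few reads past its anticodon that began at position 1, whereas the 5′ reads of Glu-CTC continued to 39 and 42. The reads of Glu-CTC from 1 to 42 were at 3097, 3567 and 3086 CPM in untreated cells and 1510, 3106 and 3123 with taurocholate, and the groups overlapped. Those from 1 to 39 were at 2787, 2606 and 2886 against 1289, 2063 and 2386, with every treated library lower and a log2 fold change of -0.38 ± 0.22 (edgeR adjusted p = 0.410).

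Within 5′ fragments of 26 to 40 nt, the cut next to the anticodon had a lower share with taurocholate in every library, and for Glu-CTC a cut further toward the 5′ end had a higher one. The end at 33 took 34.7%, 30.3% and 30.8% of such Glu-CTC fragments in untreated cells and 20.6%, 23.3% and 25.8% with taurocholate. The groups did not overlap, and the difference of -8.71 percentage points had an exact permutation p of 0.1 and an adjusted p of 0.15. The end at 30, in the anticodon stem, took 11.04%, 13.2% and 10.7% against 16.96%, 20.5% and 16.5%, again with no overlap. The end at 26 overlapped, with 15.4%, 14.1% and 14.1% against 12.9%, 14.4% and 11.4%. The length limits apply to the read, so reads ending at 26 that lacked a base were left out of these measures. Such reads ending at 30 or 33 were kept. Of the 6248 Glu-CTC reads from 1 to 26, 1379 lacked a G near the 5′ end. Over all lengths plotted by last position, the end at 26 took 16.7%, 14.7% and 15.2% against 13.1%, 14.9% and 12.4%. The groups overlapped there as well. The mean length of the Glu-CTC fragments was 31.93, 31.94 and 32.08 nt in untreated cells and 31.13, 31.27 and 31.61 nt with taurocholate. Reads of 51 nt are too long to enter these measures. Without replicate 1 of both groups the differences were -6.02 percentage points at 33, 6.53 at 30 and -0.57 nt in mean length. With error-free alignments alone the mean length differed by -0.39 nt and the groups overlapped (exact permutation p = 0.2).

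**Figure D3:**
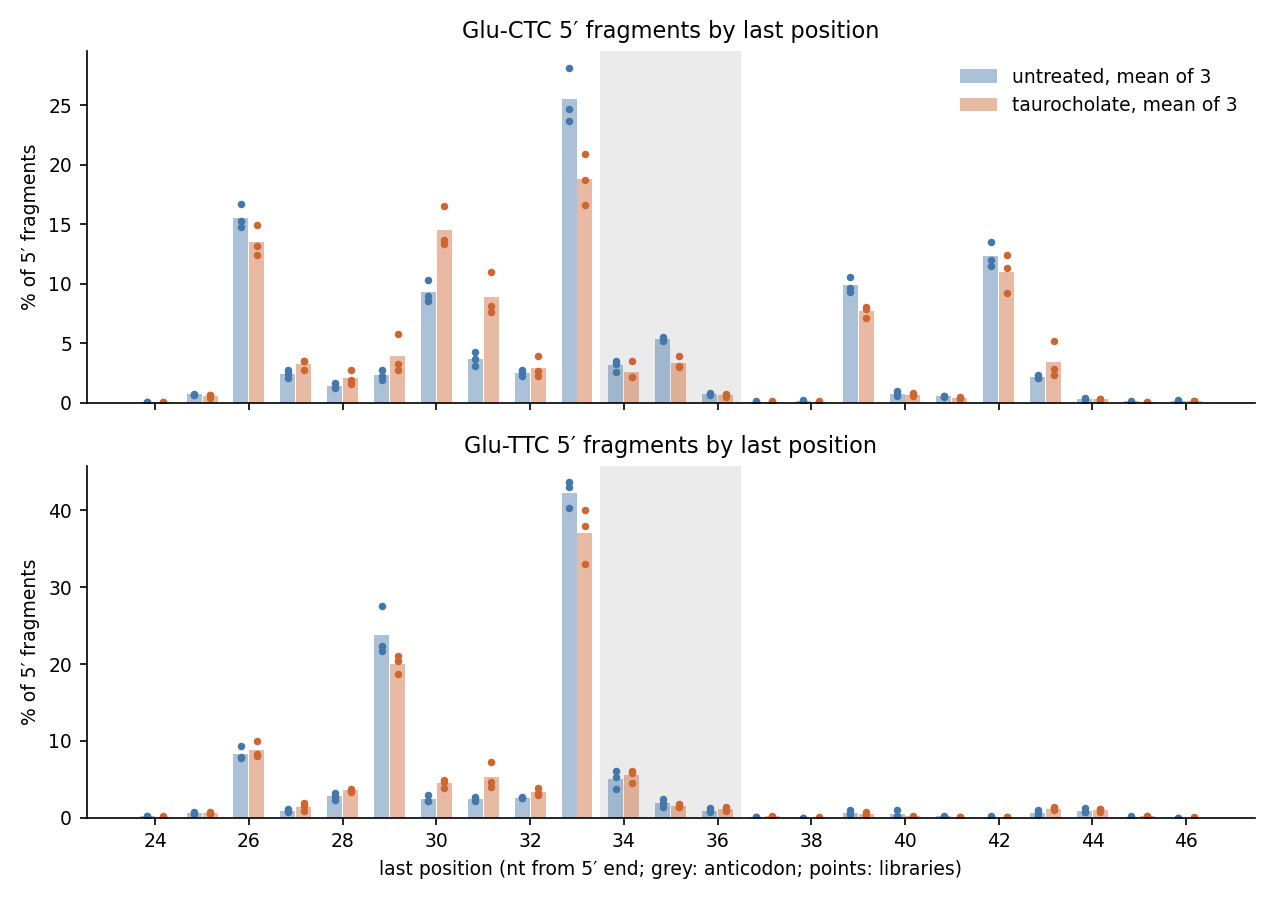
Share of 5′ fragments of up to 50 nt (vertical axis, percent) by last position (horizontal axis, nt) for Glu-CTC (top) and Glu-TTC (bottom), where bars are means of 3 libraries, points are libraries and the grey band is the anticodon. Treated libraries lie lower at 33 and higher at 30 and 31 in both panels, and at 29 they are higher for Glu-CTC and lower for Glu-TTC.

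Glu-TTC shared the lower use of position 33, with 44.9%, 46.5% and 42.7% in untreated cells and 36.1%, 42.2% and 41.4% with taurocholate. Its second site, position 29, was also used less, with 28.8%, 23.1% and 23.7% against 22.3%, 22.3% and 20.4%. At both positions the groups did not overlap, with a gap of less than 1 percentage point (exact permutation p = 0.1, adjusted p = 0.15 each). The differences of -4.80 and -3.52 percentage points were -2.82 and -2.05 without replicate 1 of both groups. With error-free alignments alone they were -5.35 and -3.75, and the groups overlapped at both positions (exact permutation p = 0.2 each). The end at 26 overlapped, with 7.99%, 8.06% and 9.74% against 10.6%, 8.27% and 8.49%. The mean length was 31.01, 31.31 and 31.24 nt against 30.84, 31.12 and 31.21 nt, which overlapped. Among shared reads the end at 31 took 31.1%, 42.6% and 35.3% in untreated cells and 60.6%, 57.4% and 53.8% with taurocholate, while the end at 34 took 60.5%, 51.7% and 55.1% against 25.98%, 35.8% and 38.9%. Each of these shared cut sites rested on reads that aligned with 1 mismatch. In the leading read of each site, the mismatch against Glu-CTC form 1 was the last base. All but that base matched Glu-CTC form 1 from 1 to 30 or from 1 to 33. The shared ends at 31 and 34 can therefore not be told apart from Glu-CTC ends at 30 and 33 with a mismatched last base.

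Of the 12 cut-site measures, which are not independent within an anticodon group, 8 did not overlap between the groups. Those of the shared reads may also repeat those of Glu-CTC, given the mismatched last bases above. Over all anticodon sets with enough reads, Glu-CTC, Glu-TTC and shared Glu included, 29 of 52 such measures, or 55.8%, did not overlap. A lack of overlap in cut-site measures was thus not confined to Glu. Among 13 anticodon sets, all 13 had shorter 5′ fragments with taurocholate, 8 of them with no overlap, and the median difference was -0.32 nt. Glu-CTC ranked 3 in this order with -0.65 nt, behind Gly-CCC and the shared Glu reads, and Glu-TTC ranked 13 with -0.13 nt (see the plot of length differences). For scale, the fragments of Lys-CTT were shorter by 0.54 nt and those of His-GTG by 0.32 nt.

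**Figure D4:**
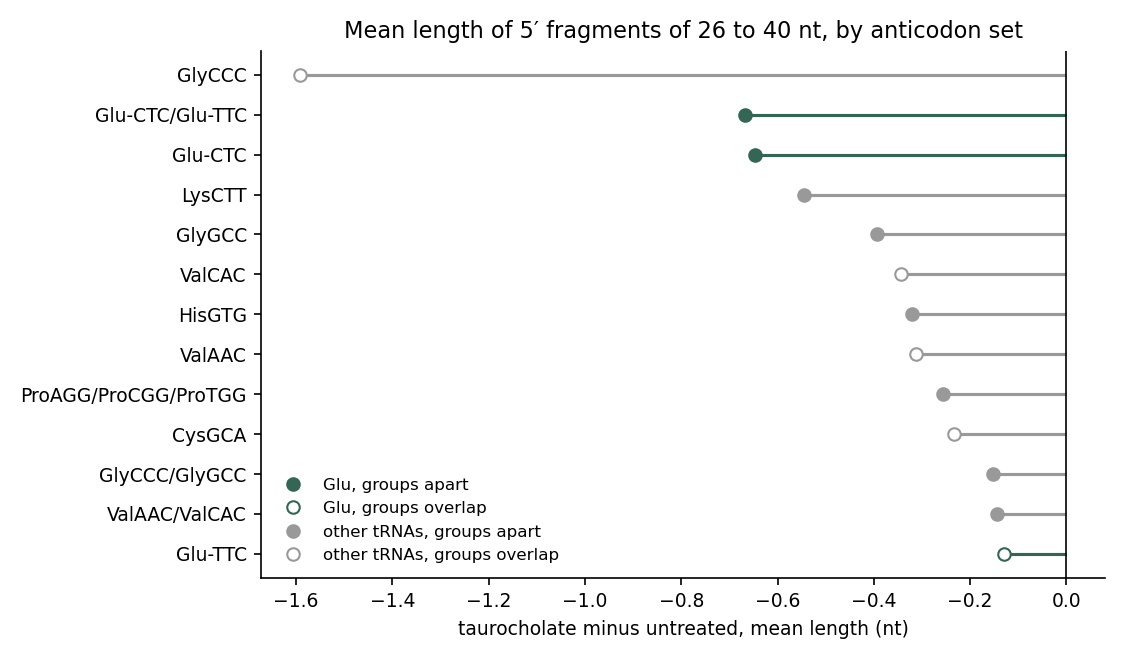
Difference in mean length of 5′ fragments of 26 to 40 nt (horizontal axis, nt, taurocholate minus untreated) for 13 anticodon sets (vertical axis), where filled points mark sets whose groups do not overlap. All 13 lie below 0, with Glu-CTC near the top of the order at -0.65 nt and Glu-TTC at its bottom at -0.13 nt.

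The same reads and libraries were also fitted by single first and last position, with no call in Glu. This fit is not a separate line of support for the cut-site shares. Of 1299 features over all tRNAs, 1 passed an adjusted p of 0.05, a lower feature outside Glu, which is 0.077%. At an unadjusted p under 0.05 there were 208, or 16.0%. The Glu tRNAs had 156 features tested and 0 called, also with DESeq2's Wald test, and 18 with an unadjusted p under 0.05. Of the 18, 16 were higher with taurocholate, or 10.3% of those tested against 9.24% of all features, and 2 were lower, or 1.28% against 6.77%. In CPM, 31 Glu features, or 19.9%, did not overlap between the groups, against 20.7% of all features.

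The smallest Glu p was that of Glu-CTC reads from 1 to 31. Untreated libraries held 174, 417 and 236 of them and treated libraries 662, 555 and 689, or 898, 1197 and 1027 against 1957, 2176 and 2249 CPM. Every treated library was above every untreated one, with a log2 fold change of 1.20 ± 0.23 and an edgeR adjusted p of 0.188. Over the alternatives this adjusted p ranged from 0.017, with no filter on low counts, to 0.554, without untreated replicate 3, and only the former was under 0.05. The reads from 1 to 30 of Glu-CTC had a log2 fold change of 0.63 ± 0.24, and those from 1 to 35 -0.72 ± 0.23, with 1538, 1452 and 1497 CPM against 553, 780 and 1139. Glu-TTC reads from 1 to 31 were at 310, 396 and 387 against 766, 482 and 512 CPM, with a log2 fold change of 0.90 ± 0.30. Taurocholate replicate 1 was the highest of these, and without replicate 1 of both groups the value was 0.36. Those from 1 to 29 were at 4712, 3283 and 3644 against 2226, 2502 and 2451, with -0.51 ± 0.23.

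**Figure D5:**
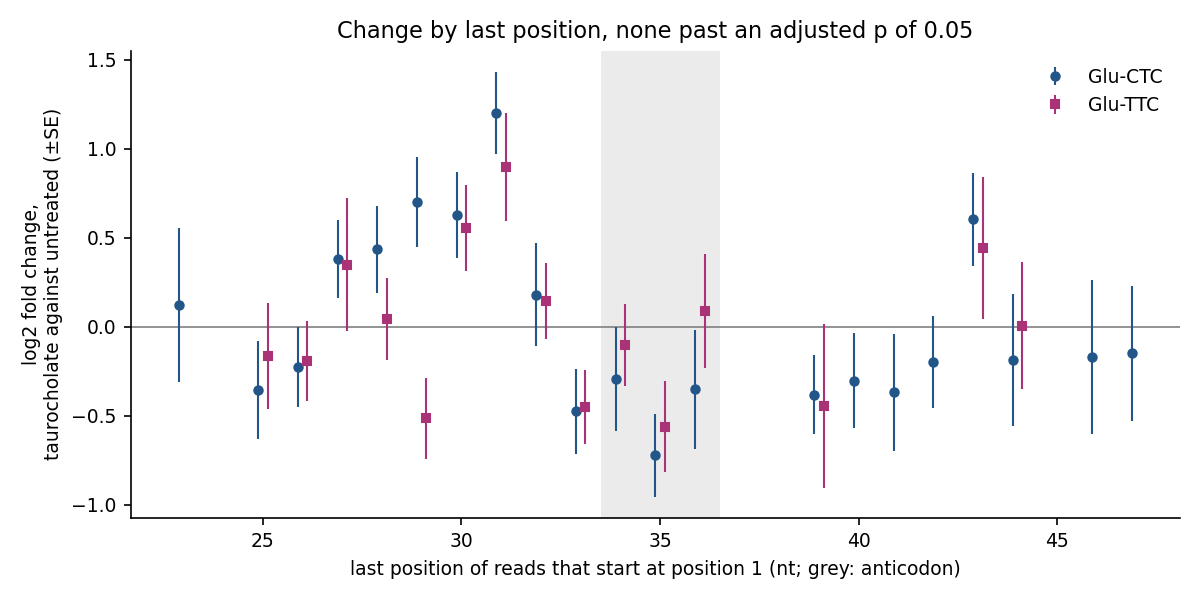
Log2 fold change of reads that begin at position 1 (vertical axis, taurocholate against untreated, bars ± SE) by last position (horizontal axis, nt) for Glu-CTC (circles) and Glu-TTC (squares), with the anticodon in grey. Both anticodons are highest at 31, with 1.20 and 0.90, and lie below 0 at 33 and 35, and they part at 29, and no point passes an adjusted p of 0.05.

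Among all Glu features, those ending at 33 to 35 stood lower than those with other ends. The ranges of last positions compared here were not planned. They leave out the end at 32, where reads from position 1 had log2 fold changes of 0.18 for Glu-CTC and 0.14 for Glu-TTC. Of 24 ending at 33 to 35, 21 had a log2 fold change below 0 (median -0.42), and of 30 ending at 29 to 31, 22 were above 0 (median 0.30). Without replicate 1 of both groups 17 of 23 ending at 33 to 35 were below 0, with a median of -0.13. Under scaling by total tRNA reads the counts were 22 of 24 and 19 of 30, and the median of the ends at 29 to 31 was 0.087. For reads from position 1, 6 of 7 features ending at 29 to 31 were above 0 and 7 of 7 ending at 33 to 35 were below. For reads that began after position 4, 12 of 15 ending at 33 to 35 were below 0, but the ends at 29 to 31 did not stand apart from the others. Of these features, 13 of 18 ending at 29 to 31 were above 0, as were 25 of 34 ending at 36 to 42. Of those ending before 29 or after 42, which include 3′ fragments, 18 of 26 were above 0. Among internal reads, those of Glu-CTC from 6 to 30 had a log2 fold change of 1.25 ± 0.38, and those of Glu-TTC from 8 to 31 were at 82.6, 51.7 and 34.8 against 115, 118 and 114 CPM, with 1.23 ± 0.37. Outside Glu, among reads from position 1, 19 of 26 features ending at 29 to 31 were above 0 and 24 of 27 ending at 33 to 35 were below.

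Single read sequences gave no call among 2233 tested with edgeR (0.0%), and 315 had an unadjusted p under 0.05, or 14.1%. Of the 221 Glu sequences tested, 31 had an unadjusted p under 0.05. DESeq2's Wald test called 44 of the 2233 sequences and 5 of the 221 of Glu, which is a like share. Of these 5, 2 were higher with taurocholate and 3 lower. Among the lower were 2 of Glu-TTC that ended in a mismatched C, given as the capital, and that, relative to depth, were lower in every treated library than in every untreated one.
Glu-TTC positions 1 to 29: tcccacatggtctagcggttaggattccC
Glu-TTC positions 1 to 33: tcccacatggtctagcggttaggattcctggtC

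The read from 1 to 29 was counted 77, 121 and 87 times in untreated cells and 36, 42 and 62 times with taurocholate, with a log2 fold change of -1.09 ± 0.21 (SE; edgeR adjusted p = 0.301, DESeq2 adjusted p = 0.0191). The read from 1 to 33 was counted 126, 224 and 147 times and 64, 96 and 106 times, with -0.93 ± 0.22 (edgeR adjusted p = 0.301, DESeq2 adjusted p = 0.0199). Reads ending in a mismatched C were fewer in all treated libraries over the whole of Glu, with 5.39%, 6.08% and 5.54% of the Glu reads in untreated cells and 2.68%, 4.03% and 3.95% with taurocholate. The reads of all other tRNAs had the same order, with 3.36%, 3.23% and 3.21% against 1.59%, 2.75% and 3.08%. A mismatched last base of any kind was found in 28.4% of the Glu-CTC reads, most often T, and in 27.6% of the Glu-TTC reads. The part of these mismatches in the cut sites was not tested as a cause. With error-free alignments alone, the share of Glu-CTC 5′ fragments ending at 33 differed by -8.51 percentage points and that at 30 by 6.01.

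Many Glu-CTC reads lacked 1 G near the 5′ end. The aligner placed the gap at position 6, in a GG pair, in 10304 reads. Of the Glu-CTC reads that began at position 1 and had at least 20 nt, 22.5%, 22.5% and 22.3% lacked this base in untreated cells and 23.0%, 23.2% and 23.6% with taurocholate. The means were 22.4% ± 0.0953 and 23.3% ± 0.300 (exact permutation p = 0.1). Within each of the 7 last positions examined the groups overlapped, with exact permutation p from 0.2 to 0.9, and at 26, 33, 35 and 39 the treated mean was the lower one. For Glu-TTC the shares were 0.0902% ± 0.0456 and 0.124% ± 0.0620. The share differed by where the read ended, with 31.1% ± 1.57 of untreated Glu-CTC reads ending at 31, 25.4% ± 0.675 of those ending at 33 and 14.9% ± 1.93 of those ending at 39. Of 17 anticodon sets with at least 1000 such reads, the 4 with TGGTGG at positions 5 to 10 had 1 base missing in 7.09% to 23.3% of reads, and the other 13 in 0.0445% to 1.85%.

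The 3′ fragments of Glu-TTC had a single leading start. Of its 3′ reads, 58.9% ran from 54 to 75, through the whole CCA tail, and 25.3% from 54 to 74, without the last base. The reads from 54 to 75 were at 3628, 4850 and 4636 CPM in untreated cells and 5785, 3345 and 5787 with taurocholate. Taurocholate replicate 2 was the lowest of all and the groups overlapped, with a log2 fold change of 0.37 ± 0.28, which was -0.06 without replicate 1 of both groups. Fragments from the anticodon to the 3′ end were rare. Reads of Glu-TTC from 36 to 75, which do not adjoin the cut at 33, numbered 10, 32 and 15 in untreated cells and 34, 9 and 38 with taurocholate, against 1446, 2374 and 1531 and 1247, 1246 and 1563 reads from 1 to 33. The Glu-CTC reads from 34 to 74, which adjoin its leading cut, numbered 28 in all. Reads that begin further on fall among the shared ones for Glu-CTC form 1, and these held 161 from 36 to 75, 115 from 36 to 74 and 93 from 35 to 74.

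Reads that aligned to Glu precursors and to no mature tRNA were not counted above. They numbered 38, 64 and 70 for Glu-CTC in untreated cells and 28, 33 and 36 with taurocholate, and from 185 to 316 in untreated cells and 156 to 325 with taurocholate for Glu-TTC.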

How the data were processed

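Small RNA of 3 untreated and 3 taurocholate-treated AR42J samples was sequenced after removal of end groups and methyl groups that block library preparation, per the labels' protocols. The authors deposited counts, since per the file headers a line gives 1 distinct read sequence, its number of reads and its alignment to a tRNA or miRNA precursor. Tools were FastQC, cutadapt and Novoalign 2.07.11, per the submitters' processing notes; the genome build is not given in the sources used here, and positions are those in the mature tRNA. Separate cultures are not named in the labels, and the p-values therefore reflect no more than the spread of these samples, which may be technical.

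Each read was counted 1 time. The deposited right end is the left end plus the read length, so it was moved by any inserted or deleted base. A mismatched last base was kept in the last position. A 5′ or 3′ fragment reaches within 3 nt of that end of the tRNA; tRFs have at most 30 nt and tiRNAs at least 31 nt, and internal fragments touch neither end. Features were the class, or the first and last position, with the anticodon set, or the read sequence. All were fitted over the whole tRNA table with edgeR 4.0.16 (R 4.3.3; quasi-likelihood test, TMM, filterByExpr, Benjamini-Hochberg, adjusted p under 0.05), with DESeq2 1.42.0 as an alternative. CPM values carry no TMM factor, whereas fold changes do; the SE comes from the F statistic. Shares were tested by exact permutation over libraries, two-sided and adjusted within each family. Anticodon sets had enough reads at 100 per library. Alternatives covered reads of 51 nt, errors, scaling, filter, end tolerance, replicate block and libraries left out.

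Named were all Glu classes and, per anticodon group, the 5 most abundant sequences and end features, the 3 end features with the smallest p in each direction at 10 CPM or more, and the leading sequence of each class. The sequences named for their DESeq2 call, the precursor reads and the deletion were chosen after their values were seen. The ranges of last positions in the fit of end features were not planned either. Some read sequences are not reported here. The members and lists were chosen with earlier results of these data known. On simulated counts with known changes, edgeR called 49% of those of 2-fold and 99% of those of 4-fold among 236 class features. The shares were 35.2% and 94.8% among 1299 end features, and 6.6% and 55.8% among 2233 sequences.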

Additional observations from a re-analysis of the deposited data

How the results depend on the processing

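The direction of the Glu-CTC cut sites at 33 and 30 and of its mean length was the same under every alternative run. Leaving out 1 library, or replicate 1 of both groups, moved these differences within -9.99 to -6.02 percentage points, 5.07 to 7.10 percentage points and -0.78 to -0.54 nt. With error-free alignments the mean length differed by -0.39 nt and its groups overlapped, as did those of the short 5′ share of Glu-CTC, the Glu-TTC share of tRNA reads and the Glu-TTC ends at 33 and 29 (exact permutation p = 0.2 each). The Glu-TTC ends at 33 and 29 also overlapped with a mismatched last base taken off, that at 33 with an end tolerance of 1 nt, and the Glu-TTC share with tRNA plus miRNA reads as the denominator. The alternative without replicate 1 of both groups and that with a mismatched last base taken off were chosen after seeing the data.

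Over all tRNAs, the class fit called 0 features, 1 with DESeq2's Wald test and 3 with no filter. The end fit called 1 feature, 38 with no filter, and 0 with error-free alignments, with the mismatched last base taken off or with totals of tRNA plus miRNA reads; with libraries left out it called 0 to 1, with 1 only where untreated replicate 1 alone was left out. The sequence fit called 0, 44 with the Wald test and 125 of 67949 with no filter. Of these 125, 5 were among the 7070 Glu sequences, and 4 of the 5 ended in a mismatched G. The cause was not tested. Scaling by total tRNA reads moved the median of all end features from 0.03 to -0.18.

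Differences near 0 changed sign. With error-free alignments the Glu-TTC share at 26 differed by -0.030 points, and the shared Glu ends at 31, 34 and 35 held no read by construction. With an end tolerance of 1 nt the Glu-CTC 3′ share differed by 0.010, and with 5′ fragments up to 50 nt the shared Glu mean length differed by 0.50 nt. With libraries left out, the ranges were -0.52 to 1.09 for the Glu-TTC share at 26, -0.90 to 2.58 for the shared Glu share at 35, -0.049 to 0.73 and -0.17 to 0.27 for the 51 nt shares of Glu-CTC and Glu-TTC, -0.041 to 0.014 for the Glu-CTC 3′ share, and -1.72 to 1.46 and -0.18 to 1.85 for the internal shares of Glu-CTC and Glu-TTC.

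Log2 fold changes of i-tRF Glu-TTC were 0.011 without reads of 51 nt, 0.033 with error-free alignments, 0.015 with a tolerance of 1 nt and 0.013 with no filter. Those of tRF-3 shared Glu were -0.091 with error-free alignments and -0.11 with tRNA totals, those of tiRNA-3 Glu-TTC -0.081 and -0.025, and that of tRF-5 shared Glu 0.0058 with no filter. With libraries left out, they ranged from -0.13 to 0.098 for i-tRF Glu-CTC, -0.099 to 0.12 for i-tRF Glu-TTC, -0.35 to 0.28 for tRF-3 shared Glu, -0.018 to 0.37 for tRF-3 Glu-TTC, -0.20 to 0.28 for tRF-5 shared Glu, -0.72 to 0.092 for tiRNA-3 Glu-CTC, -0.24 to 0.054 for tiRNA-3 shared Glu, -0.20 to 0.35 for tiRNA-3 Glu-TTC, -0.92 to 0.0072 for shared Glu 16 to 34 and -0.060 to 0.56 for Glu-TTC 54 to 75.

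In the class features, deviations of same-numbered libraries had correlations of -0.20, 0.043 and 0.29, within the range of -0.46 to 0.30 for unlike numbers. Replicate 1 of both groups did share the excess of a mismatched last G. Replicates 1 to 3 were at 191, 34.4 and 1148 CPM for mir-451 in untreated cells and at 209, 32.5 and 516 with taurocholate. This order of the numbers was the same in both groups, as it was for mir-144, mir-223 and mir-150, but not for mir-142 and mir-143. A link between same-numbered libraries was not tested further, and the labels do not give one. The numbers were not taken as pairs in the main tests. With the replicate block the class, end and sequence fits called 0, 1 and 0 features, and the Glu-CTC reads from 1 to 31 had a log2 fold change of 1.21. With 3 libraries a group, changes of 2-fold in single sequences were mostly beyond reach.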
